A study of Mus musculus with 8 samples.

Results

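The 34 genes described here act in germ cells and were selected by symbol, out of 23845 symbols in the tables, as germline genes whose footprints can be read in embryonic stem cells. They were measured at passages 5 to 10 in mESC, the embryonic stem cells of the mouse, which are pluripotent and renew themselves in culture. The 2 genotypes were wild type (WT) and METTL5 KO, a knockout of an enzyme that methylates 1 adenosine of the small-subunit ribosomal RNA. Ribosome-protected fragments from the monosome fraction of a sucrose gradient (Ribo-seq, "footprints") were sequenced from 2 WT and 2 KO libraries, and total RNA (RNA-seq) from 2 WT and 2 KO libraries. The labels do not give the number of KO clones or the parental line, the names of the KO tables all share 1 tag of unstated meaning, and the series calls the replicates biological without further detail, so a p-value reflects how far these libraries spread, which may be technical in part.

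Germ cells guard and shuffle their genome with proteins that most other cells do not make. The piRNA pathway loads small RNAs into PIWI proteins, with Tudor-domain proteins as scaffolds in germ granules, and silences transposons. The synaptonemal complex zips paired chromosomes together in meiosis. In somatic cells, and partly in embryonic stem cells, many of these genes are kept down by DNA methylation of CpG-rich promoters and by PRC1.6, a Polycomb complex that carries the DNA-binding proteins E2F6, MGA and MAX. Embryonic stem cells, whose DNA methylation can be low, are known to transcribe part of this programme at low levels.

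All 34 symbols were found in the footprint tables, and 27 to 30 of them had at least 10 counts in a given footprint library. Footprint libraries held 8401463 to 11487964 expected counts and RNA-seq libraries 152195 to 219567. Rn45s, the ribosomal RNA precursor, held 7.58% to 15.2% of footprint counts. Values are given in CPM, the expected count of a gene as a share of the library total scaled to 1e6, and 3 counts corresponded to 0.261 to 0.357 CPM in footprints. Mettl5 footprints, the check of the labels, were 41.2 and 45.9 CPM in WT and 4.08 and 4.79 CPM in KO. All 9 embryonic stem cell markers examined, Pou5f1 among them, stood above 3 counts in every footprint library, and their summed level was 5699 and 7416 CPM in WT and 7268 and 7108 CPM in KO. None of the 9 passed by edgeR, and DESeq2 called Zfp42 alone (adjusted p = 0.0368). Zfp42 had 1084 and 1096 CPM in WT and 754 and 691 CPM in KO (adjusted p = 0.0904 by edgeR). Of 8 spermatid markers, none stood above 3 counts in every library, and Prm1, Prm2, Tnp1, Acrv1 and Spaca1 were at 0 in each. Of 8 Sertoli and granulosa cell markers, 2 stood above 3 counts in every library and Fshr was at 0. Sox9 of that list had 0.191 and 0.119 CPM in WT, under 3 counts each, and 1.72 and 2.79 CPM in KO. It passed the filter on low counts through its KO libraries alone, so no p-value is given for it.

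Promoters are shown first, because the repressors of these genes recognise short DNA words near the start site. A RefSeq window (GRCm38.p6) from 250 bases before to 50 bases after the start was matched for 31 of the 34 genes, and Piwil2, Dnd1 and Tex11 had no entry. Both strands were searched for TCCCGC, the core of E2F-type sites, and for CACGTG, the E-box read by MAX-containing dimers. The 2 words were counted separately and could share an end base. TCCCGC was present in 13 of 31 windows (41.9%) and in 20.0% of 27025 windows of all genes. CACGTG was present in 12 of 31 (38.7%) and in 7.24% of all windows. Both were present in 6 of 31 (19.4%), those of Ddx4, Mael, Hormad1, Sycp1, Sycp3 and Slc25a31, and in 2.05% of all windows. The germline windows were also richer in G and C (median 60.0% against 52.7%) and in CpG (median observed over expected 0.687 against 0.389), so the share of each word is a description of these letters. The 4 windows below belong to the pair of genes that passed the test in KO, Tex19.1 (chr11:121145893-121146192, plus strand) and Rpl10l (chr12:66284352-66284651, minus strand), to Ddx4 (chr13:112652261-112652560, minus strand), which holds both words, and to Stra8 (chr6:34920698-34920997, plus strand), which holds neither. Each is written 5′ to 3′ on the gene's strand, with TCCCGC, its reverse complement GCGGGA and CACGTG in capitals. The windows follow the RefSeq start, which for Stra8 and Ddx4 lies downstream of the gene start in GENCODE (34920163 and 112652475). Both words of Ddx4 lie downstream of its GENCODE start.
Tex19.1: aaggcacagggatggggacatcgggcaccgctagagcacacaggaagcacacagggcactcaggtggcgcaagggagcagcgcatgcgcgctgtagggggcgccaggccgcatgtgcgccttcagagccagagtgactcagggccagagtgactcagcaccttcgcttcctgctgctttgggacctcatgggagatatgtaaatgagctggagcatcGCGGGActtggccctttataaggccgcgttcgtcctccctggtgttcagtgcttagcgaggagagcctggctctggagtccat
Rpl10l: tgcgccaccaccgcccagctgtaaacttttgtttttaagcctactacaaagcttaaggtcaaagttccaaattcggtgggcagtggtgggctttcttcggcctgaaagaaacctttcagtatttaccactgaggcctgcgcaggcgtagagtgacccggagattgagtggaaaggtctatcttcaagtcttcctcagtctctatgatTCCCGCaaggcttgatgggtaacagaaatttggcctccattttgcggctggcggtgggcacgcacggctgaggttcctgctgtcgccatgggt
Ddx4: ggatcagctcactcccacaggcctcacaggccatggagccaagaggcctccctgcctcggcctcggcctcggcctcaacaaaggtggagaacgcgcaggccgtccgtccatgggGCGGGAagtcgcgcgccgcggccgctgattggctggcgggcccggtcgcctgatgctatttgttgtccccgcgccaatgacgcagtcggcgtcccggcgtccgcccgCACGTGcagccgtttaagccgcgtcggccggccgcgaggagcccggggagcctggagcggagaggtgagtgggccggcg
Stra8: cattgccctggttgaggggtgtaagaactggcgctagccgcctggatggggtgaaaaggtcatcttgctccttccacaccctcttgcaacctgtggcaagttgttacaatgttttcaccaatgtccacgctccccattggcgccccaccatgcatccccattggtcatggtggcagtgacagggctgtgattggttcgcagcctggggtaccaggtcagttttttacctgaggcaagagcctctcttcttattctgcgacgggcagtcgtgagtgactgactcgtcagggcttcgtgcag

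Per unit of transcript length, 4 genes led. The deposited TPM, which divides by transcript length, averaged 58.4 over the footprint libraries for Tdrd12, a Tudor-domain helicase of the piRNA pathway, 57.1 for Rpl10l, an intronless copy of the ribosomal protein gene Rpl10, 53.7 for Tuba3a, a testis alpha-tubulin, and 50.9 for Tex19.1, a mammalian germline protein that restrains retrotransposons. These 4 could not be ordered, since their libraries interleaved: Tdrd12 ran from 43.9 to 70.9 TPM, Rpl10l from 39.9 to 76.3, Tuba3a from 43.2 to 71.5 and Tex19.1 from 33.9 to 68.2. The deposited length of Tdrd12 was 1621 bases, while its exons in GENCODE cover 4338, so its TPM would be lower over the longer length. Syce1, a central element protein of the synaptonemal complex, followed at a mean of 22.9 TPM (14.7 to 35.6), Dnd1 at 17.2 and Hormad1 at 14.0. The lowest were Tdrd9 at 0.0925 TPM and Sycp2 at 0.103 TPM. For scale, Pou5f1 averaged 884 TPM, the median of 12315 genes tested was 9.20 TPM and the median of the 28 germline genes that passed the count filter was 5.86 TPM. The plot of levels by library places every gene on the CPM scale.

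**Figure D1:**
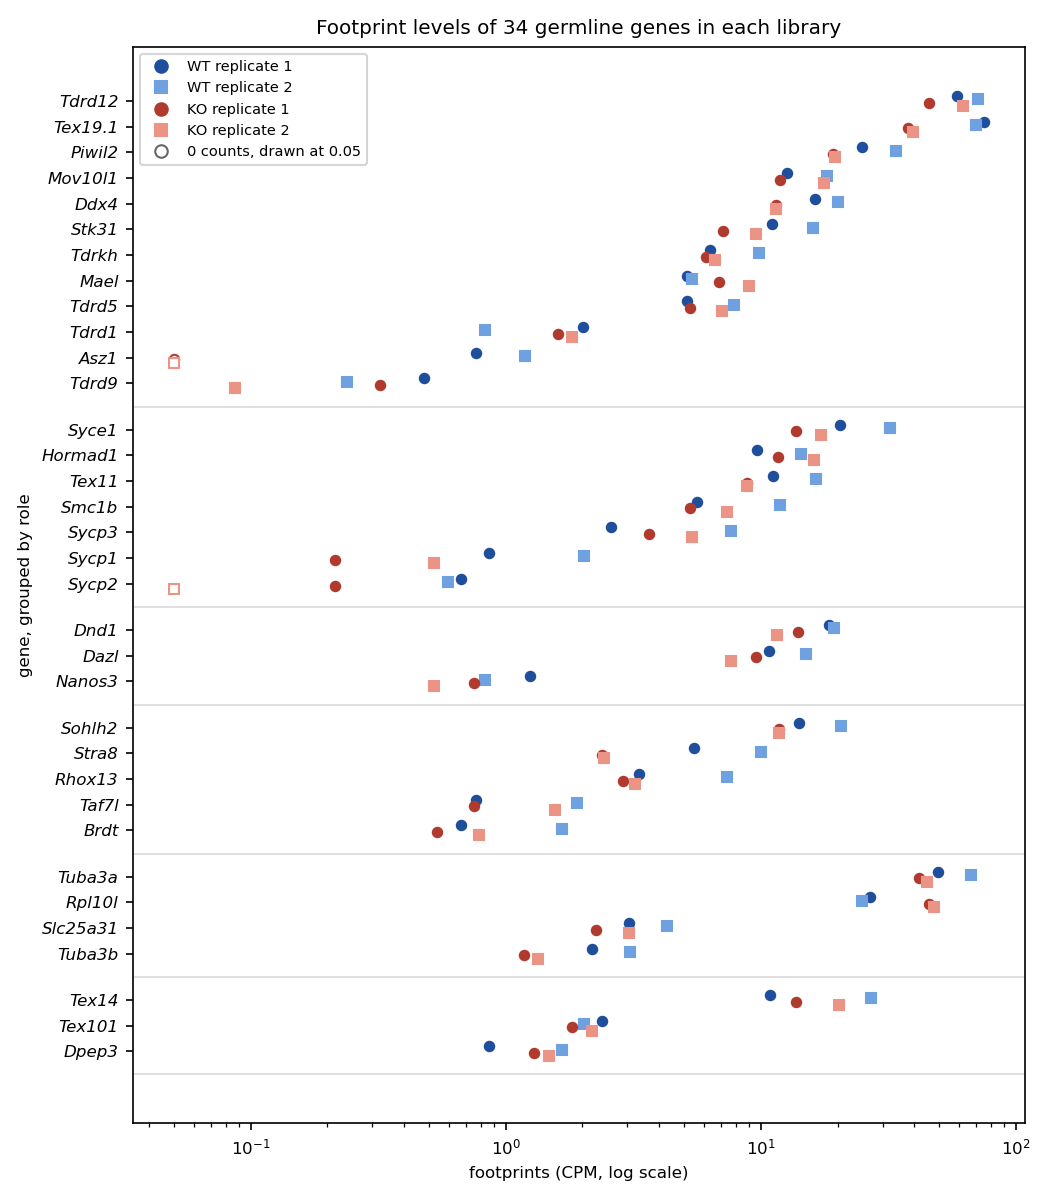
Footprints (CPM, log axis) of each of the 34 genes in the WT (blue) and KO (red) libraries, grouped by role; circles are replicate 1, squares replicate 2, and open symbols are libraries with 0 counts. Tex19.1 and Rpl10l show both KO libraries apart from both WT libraries in opposite directions, and Asz1 was at 0 in both KO libraries.

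The comparison of KO with WT asked which footprints changed without METTL5. Footprints on Tex19.1 fell and footprints on Rpl10l rose, and no other germline gene passed the test in the unpaired fit. Of 28 genes tested, 1 was lower and 1 was higher at an adjusted p below 0.05 (edgeR quasi-likelihood test, Benjamini-Hochberg over 12315 genes). Among all genes 2.44% were called, 0.617% lower and 1.83% higher. At an unadjusted p below 0.05, 11 of the 28 were lower and 2 higher, beside 8.72% lower and 10.7% higher among all genes. In 14 of the 28 both KO libraries lay below both WT libraries, which held for 25.5% of all genes, and in 2 of the 28 both lay above, which held for 24.3%. In the names of the deposited tables the WT and KO footprint libraries of equal number also share a tag that reads like a date, although no label says what it marks. With the replicate number as a pairing block, the germline genes called went from 1 to 11 lower, with Ddx4, Piwil2, Syce1, Stra8 and Dazl among them, and stayed at 1 higher, beside 11.3% lower and 12.7% higher among all genes in that fit. A gene given below as not passing did not pass in the fit without pairing. Log2 fold changes in that unpaired fit were negative in 23 of 28, with a median of -0.42, beside 49.2% negative and a median of 0.006 among all genes tested. The 6 genes left out by the count filter are described with their counts, and with no filter the median over all 34 was -0.55. These are footprint totals from whole cultures, in which fewer cells with a transcript, less of it per cell and fewer ribosomes on it cannot be told apart.

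**Figure D2:**
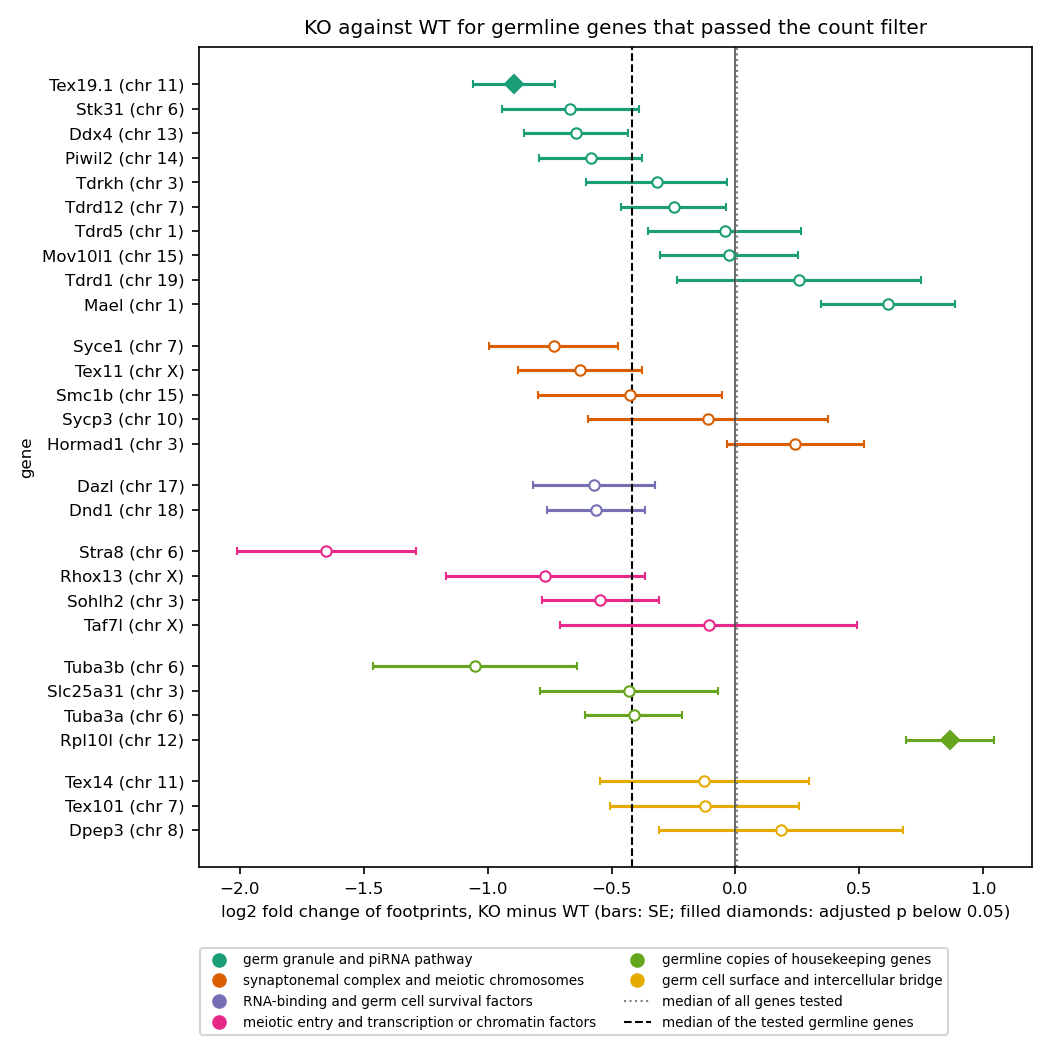
Log2 fold change of footprints (KO minus WT, bars are SE) for the 28 germline genes that passed the count filter, coloured by role and with the chromosome in the label; filled diamonds have an adjusted p below 0.05. Most points lie left of 0 around the median of -0.42 (dashed line), with Tex19.1 (-0.89) and Rpl10l (0.87) as the 2 that passed.

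The WT libraries themselves differed on these genes. On the log2(CPM + 0.5) scale the 28 tested genes were higher in WT replicate 2 than in WT replicate 1 by a median of 0.51, and the KO mean was below the WT mean by a median difference of -0.39. The 2 KO libraries differed by a median of 0.14, and over all 12315 genes the WT libraries differed by a median of 0.006. Summed over the 34 genes, footprints were 420 and 546 CPM in WT and 347 and 400 CPM in KO. The KO libraries thus lay below both WT libraries, while the gap between the WT libraries was larger than that between WT replicate 1 and KO replicate 2. The separation depended on keeping Rn45s in the total, with 7.58% of counts in WT replicate 1 and 15.2% in KO replicate 2. With Rn45s left out, KO replicate 2 lay above WT replicate 1, and the groups overlapped. Leaving out WT replicate 1 gave a median log2 fold change of -0.68, and leaving out WT replicate 2 gave -0.19. Without WT replicate 1 the log2 fold changes of Tex19.1 and Rpl10l were -0.83 and 0.92, and without WT replicate 2 they were -0.95 and 0.81. No germline gene was called without KO replicate 1 or without KO replicate 2.

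Chromosome also moved with the fold change. Median log2 fold changes over all genes tested were -0.38 on chromosome 6 (566 genes), -0.22 on chromosome 8 (676 genes) and -0.25 on chromosome 11 (1043 genes), while those of the other autosomes and of X lay between -0.02 and 0.10. Of the 28 germline genes tested, 7 lie on chromosomes 6, 8 or 11, with a median of -0.67. The other 21 had a median of -0.32 and negative values in 17, beside a median of 0.06 and 43.1% negative over 10008 genes of the same chromosomes. With the median of each chromosome removed, the germline median was -0.35 and neither Tex19.1 (-0.64, adjusted p = 0.100) nor Rpl10l (0.82, adjusted p = 0.0602) passed the test.

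Tex19.1 (chr11:121146143-121148319, plus strand, GRCm38) had 75.2 and 69.7 CPM in WT and 37.8 and 39.5 CPM in KO. Replicates lay close together in both genotypes, and the groups were far apart. The log2 fold change was -0.89 (SE 0.17, adjusted p = 0.0317 by edgeR), and it kept its sign in all 11 alternative fits. The call of Tex19.1 was lost with chromosome medians removed (-0.64, adjusted p = 0.100), without KO replicate 1 (-0.82) and without KO replicate 2 (-0.97). Its neighbour and relative Tex19.2 shares 136 of the 1870 windows of 28 bases in Tex19.1 transcripts and had 14 counts in each WT library and 9 and 6 in KO. Tex19.1 itself had 787 and 586 counts in WT and 352 and 453 in KO.

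Among the other germ granule and piRNA genes, 9 were tested and none passed by edgeR or DESeq2. Of the 10 tested with Tex19.1 included, 4 were lower and 1 higher at an unadjusted p below 0.05, beside 8.72% and 10.7% of all genes. Ddx4, the VASA helicase of germ granules, had 16.3 and 20.0 CPM in WT and 11.5 and 11.5 CPM in KO, without overlap (log2 difference -0.64, SE 0.21, adjusted p = 0.144). Piwil2, a PIWI protein that binds piRNAs, had 24.9 and 33.8 CPM in WT and 19.1995 and 19.4987 CPM in KO (-0.58, SE 0.21, adjusted p = 0.171). In both genes the KO libraries were close together and the WT libraries spread above them.

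Stk31, a Tudor-domain kinase, had 11.1 and 15.9 CPM in WT and 7.08 and 9.58 CPM in KO (-0.67, adjusted p = 0.229), and at -0.28 it was smaller with the median of chromosome 6 removed. Tdrd12 had 58.7 and 71.1 CPM in WT and 45.6 and 61.8 CPM in KO, and its groups overlapped. Tdrkh, which ties PIWI proteins to mitochondria and shares 2255 exon bases with Oaz3 on the opposite strand, had 6.31 and 9.88 CPM in WT and 6.11 and 6.62 CPM in KO. Its WT replicate 1 lay between the KO libraries, and WT replicate 2 alone stood above the rest.

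Mov10l1, the helicase that starts piRNA processing, had 12.6 and 18.2 CPM in WT and 11.9 and 17.7 CPM in KO, and Tdrd5, a Tudor-domain protein, had 5.16 and 7.86 CPM in WT and 5.26 and 7.05 CPM in KO. The genotypes overlapped in both genes, with log2 fold changes of -0.03 (SE 0.28) and -0.04 (SE 0.31). Mael, a germ granule protein needed for transposon silencing, had 5.16 and 5.36 CPM in WT and 6.86 and 8.97 CPM in KO (0.61, SE 0.27, adjusted p = 0.256). Its KO libraries both lay above its WT libraries, which held for none of the other 9 germ granule genes tested and for 24.3% of all genes.

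Tdrd1, another Tudor scaffold, ran from 0.833 to 2.01 CPM with overlapping groups. Asz1, a mitochondrial germ granule protein encoded on chromosome 6, did not pass the filter: it had 8 and 10 counts in WT and 0 and 0 in KO. The exact 95% interval of its KO to WT ratio of CPM, with the libraries pooled, reached up to 0.206. With no filter its adjusted p was 0.0047 by the edgeR test, in a fit that called 1110 genes against 301 with the filter. No value with the median of chromosome 6 removed was computed for Asz1. Tdrd9, a helicase, had 7 WT and 4 KO counts in all (ratio of CPM 0.518, exact 95% interval 0.111 to 2.04). Intervals of such ratios cover counting error only and pool the libraries of a genotype.

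Synaptonemal complex and meiotic chromosome genes were represented mainly by Syce1, Hormad1, Tex11 and Smc1b, and none of the 5 tested passed by edgeR or DESeq2. At an unadjusted p below 0.05, 2 of the 5 were lower and 0 higher, beside 8.72% and 10.7% of all genes. Syce1 had 20.4 and 32.1 CPM in WT and 13.7 and 17.2 CPM in KO (-0.73, SE 0.26, adjusted p = 0.171). Tex11, an X-linked crossover protein, had 11.2 and 16.4 CPM in WT and 8.80 and 8.79 CPM in KO (-0.63, SE 0.25, adjusted p = 0.214). Neither overlapped between genotypes.

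Smc1b, the meiotic cohesin subunit, had 5.64 and 11.9 CPM in WT and 5.26 and 7.40 CPM in KO, so that WT replicate 1 lay inside the KO range. Hormad1, which marks unpaired chromosome axes, had 9.65 and 14.4 CPM in WT and 11.7 and 16.1 CPM in KO (0.24, SE 0.28, adjusted p = 0.691), with overlapping groups. Of the 28-base windows of Hormad1 transcripts 38.3% also occur in transcripts of other genes, mostly of Gm15529, so its counts are uncertain. Sycp3, an axis protein whose exons overlap Chpt1 on the opposite strand by 660 bases, ran from 2.58 to 7.62 CPM within WT alone, a wider range than all of KO (3.65 to 5.40).

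Sycp1, the transverse filament, and Sycp2, an axis protein, had few footprints. Sycp1 had 26 WT and 8 KO footprint counts (ratio of CPM 0.279, exact 95% interval 0.109 to 0.634) and Sycp2 had 12 and 2 (0.151, interval 0.0164 to 0.679). Both had both KO libraries below both WT libraries and neither passed the count filter. On the TPM scale, which corrects for length, Sycp1 averaged 0.418 in footprints against 22.9 for Syce1.

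Dazl and Dnd1, RNA-binding proteins that regulate translation and survival of germ cells, had similar fold changes. Dazl had 10.8 and 14.997 CPM in WT and 9.55 and 7.66 CPM in KO (-0.57, SE 0.25, adjusted p = 0.249). Dnd1 had 18.5 and 19.4 CPM in WT and 13.9 and 11.6 CPM in KO (-0.56, SE 0.20, adjusted p = 0.166). Both Dnd1 WT libraries lay close together and above both KO libraries, and 4.57% of its 28-base windows are shared with a pseudogene. Nanos3, a partner of this class in early germ cells, had 20 WT and 13 KO counts (ratio of CPM 0.589, exact 95% interval 0.269 to 1.24).

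Stra8, the retinoic acid-induced switch for meiotic entry, had the lowest log2 fold change of the 28 germline genes tested. It had 5.45 and 10.0 CPM in WT and 2.39 and 2.43 CPM in KO, a log2 fold change of -1.65 (SE 0.36) that fell just outside the threshold (adjusted p = 0.0529). DESeq2 called it (adjusted p = 0.0302), and so did the fit without WT replicate 1 (0.000128), whereas without WT replicate 2 the value was -1.17 (adjusted p = 0.103). Stra8 lies on chromosome 6, and with chromosome medians removed it was at -1.27 (adjusted p = 0.134).

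Sohlh2, a transcription factor of early germ cell differentiation, had 14.1 and 20.7 CPM in WT and 11.8 and 11.8 CPM in KO (-0.54, SE 0.24, adjusted p = 0.251). Rhox13, an X-linked homeobox gene, had 3.34 and 7.38 CPM in WT and 2.90 and 3.22 CPM in KO, and both genes kept their KO libraries under both WT libraries. Taf7l, a germ cell relative of the general factor TAF7, ran from 0.764 to 1.91 CPM in WT and from 0.751 to 1.57 CPM in KO. Brdt, the testis bromodomain protein, had 21 WT and 14 KO counts (ratio of CPM 0.604, exact 95% interval 0.284 to 1.25).

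**Figure D3:**
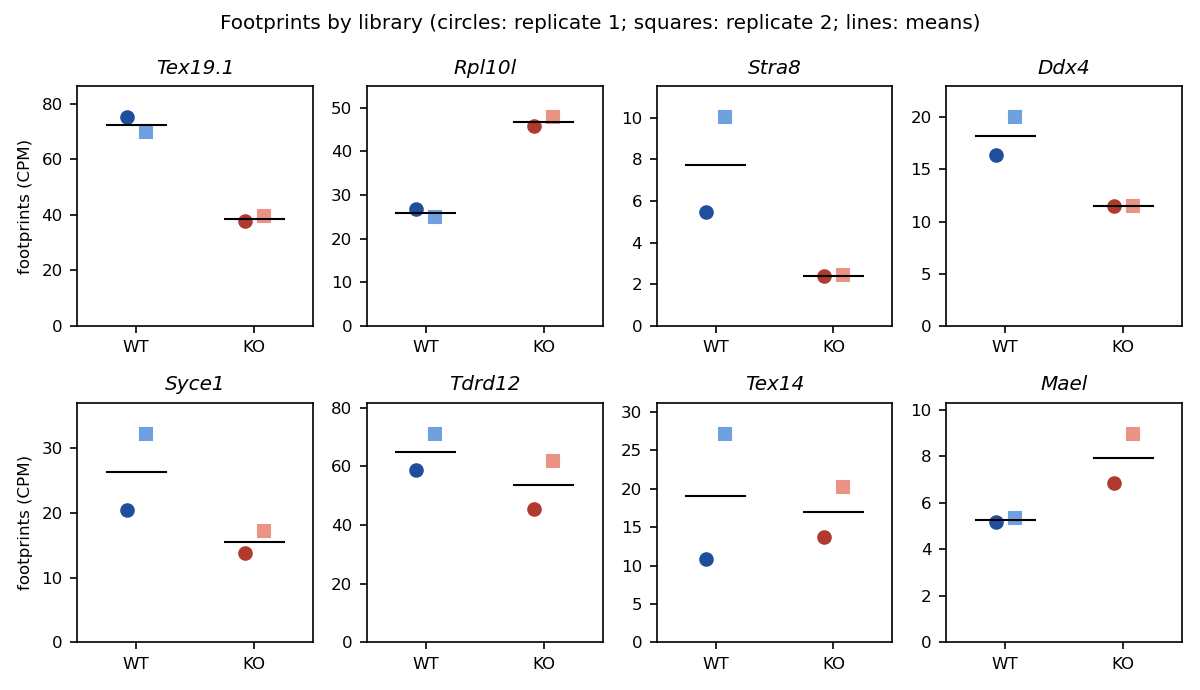
Footprints (CPM, linear axes from 0) in each library for 8 genes, with the genotype mean as a line. Tex19.1 and Rpl10l have tight replicates in both genotypes, Stra8, Ddx4 and Syce1 have WT libraries spread above KO libraries, Tdrd12 and Tex14 overlap, and the KO libraries of Mael, which did not pass the test, lie above its WT libraries.

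Rpl10l (chr12:66283379-66284401, minus strand, GRCm38) was the single germline gene called higher. It had 26.8 and 25.03 CPM in WT and 45.8 and 47.8 CPM in KO, with both pairs of replicates close together (KO minus WT 0.87 in log2, SE 0.18, adjusted p = 0.0429). The edgeR call was lost where a mean of 50 counts was required (adjusted p = 0.05001) and with chromosome medians removed (0.0602). It was also lost without WT replicate 2 (log2 fold change 0.81), without KO replicate 1 (0.94) and without KO replicate 2 (0.79). The log2 fold change of Rpl10l stayed between 0.79 and 0.94 in all 11 alternatives. Its parent Rpl10 averaged 1123 ± 150 CPM over the WT libraries and 1116 ± 51.4 CPM over the KO libraries (SD, n = 2 each), a difference smaller than the spread within WT. No 28-base window of Rpl10l occurs unchanged in Rpl10, 12.3% match it with at most 2 mismatches, and 26.9% occur unchanged in Gm14460. The assignment of reads among these copies was the authors' RSEM step and is uncertain, and its part in the rise was not tested.

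The other germline copies of housekeeping genes did not pass. Tuba3a had 49.6 and 66.7 CPM in WT and 41.7 and 44.7 CPM in KO (-0.41, SE 0.20, adjusted p = 0.294), and with the median of chromosome 6 removed it was at -0.03. Tuba3b, also on chromosome 6, had 2.17 and 3.08 CPM in WT and 1.18 and 1.34 CPM in KO. The pair share 714 windows of 28 bases, 51.6% of those of Tuba3a and 45.8% of those of Tuba3b recur in other genes, and the split of reads between them is therefore uncertain. Slc25a31, the germ cell ADP/ATP carrier, had 3.06 and 4.28 CPM in WT and 2.25 and 3.05 CPM in KO.

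Tex14, which holds intercellular bridges of germ cells open, had 10.9 and 27.1 CPM in WT and 13.7 and 20.2 CPM in KO, so both KO libraries lay between the WT libraries (-0.13, SE 0.42, adjusted p = 0.911). The surface proteins Tex101 and Dpep3, a dipeptidase, were at 1.82 to 2.39 CPM and 0.860 to 1.67 CPM across the 4 libraries, also with overlap.

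The RNA-seq tables held too few counts on these genes for the same comparison. Of the 34 genes 12 had 0 counts in every RNA-seq library, and all except Sycp1 had at most 7 counts in any. Without Sycp1 the 33 others summed to 14.1 and 30.2 counts in WT and 16.7 and 13 counts in KO. Changes of that size were not detectable at this depth, and whether footprint changes followed RNA could not be asked gene by gene. Sycp1 was the single gene tested in RNA-seq, where 6.37% of 2087 genes were called, 2.68% lower and 3.69% higher. It had 47.0 and 46.1 counts in WT and 30.7 and 73.0 in KO (KO minus WT 0.46 in log2, SE 0.38, adjusted p = 0.543). Sycp1 had the most RNA-seq counts of the 34 genes and 34 footprint counts in all, and 18.6% of its 28-base windows recur in other genes, most of them in Sycp1-ps1, which had 0 footprint counts in every library.

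Related lists gave the setting. Among all genes 8.72% were lower and 10.7% higher at an unadjusted p below 0.05 by edgeR. Of 20 other piRNA pathway genes 16 were tested and none passed by edgeR or DESeq2 (2 had an unadjusted p below 0.05, both lower), with a median log2 fold change of -0.20. Both KO libraries lay below both WT libraries in 8 of the 16, beside 25.5% of all genes, and above them in 2, beside 24.3%. The 2 above were Tdrd7 (2.58 and 2.26 CPM in WT, 3.54 and 2.87 in KO) and Exd1 (3.25 and 2.86, then 3.86 and 4.27), named after their values were seen. Dnmt3l, the cofactor of de novo DNA methylation that also acts in germ cells, had 628 and 539 CPM in WT and 393 and 382 CPM in KO (-0.58, SE 0.16, adjusted p = 0.101), and Wdr77, a partner of the methyltransferase PRMT5, had 273 and 269 CPM in WT and 222 and 208 CPM in KO (-0.32, adjusted p = 0.264). Of 32 other meiosis genes 17 were tested and none passed by either tool (3 had an unadjusted p below 0.05, all lower), with a median of -0.24. The most abundant were Syce2, a central element protein (65.2 ± 15.7 CPM in WT and 53.0 ± 8.51 CPM in KO), and Mnd1, a recombination factor (52.8 ± 10.5 and 48.6 ± 5.43 CPM; SD, n = 2 each).

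Of 20 primordial germ cell and germline factors 14 were tested, and Ifitm1, an interferon-inducible membrane protein that marks early germ cells, rose from 122 ± 8.92 to 220 ± 36.1 CPM (SD, n = 2 each; 0.86, SE 0.16, adjusted p = 0.0303; 0.132 without KO replicate 1). Its relative Ifitm3 had 201 and 187 CPM in WT and 282 and 287 CPM in KO (0.57, adjusted p = 0.0897), and the list median was -0.04. At an unadjusted p below 0.05, 4 of the 14 were higher and 5 lower, beside 10.7% higher and 8.72% lower among all genes. DESeq2 called 4, namely Ifitm1 higher and Dppa3, Rhox5 and Rhox6 lower, beside 374 of 12315 genes in all. Dppa3 had 95.8 and 146 CPM in WT and 45.3 and 71.5 CPM in KO (-1.02, adjusted p = 0.107 by edgeR). It lies on chromosome 6, where the median of all genes tested was -0.38. The repressors of germline genes were all tested, 25 of 25, and none passed by either tool (1 higher and 2 lower at an unadjusted p below 0.05), with a median of -0.04. Trim28, the corepressor that recruits SETDB1, had 2324 ± 211 CPM in WT and 2338 ± 115 CPM in KO, and Uhrf1, which maintains DNA methylation, 820 ± 151 and 681 ± 113 CPM.

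Of 13 somatic relatives of the germline genes, all tested, Slc25a4, the somatic counterpart of Slc25a31 on chromosome 8, fell from 298 ± 47.4 to 165 ± 18.0 CPM (SD, n = 2 each; -0.84, SE 0.17, adjusted p = 0.0384). That call did not hold when KO replicate 1 (0.0812) or KO replicate 2 (0.135) was left out, when a mean of 50 counts was required (0.0508), or after subtraction of chromosome medians (-0.62, adjusted p = 0.118). Rpl10 and the alpha-tubulin gene Tuba1b were the most abundant of this list, whose median was 0.07.

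**Figure D4:**
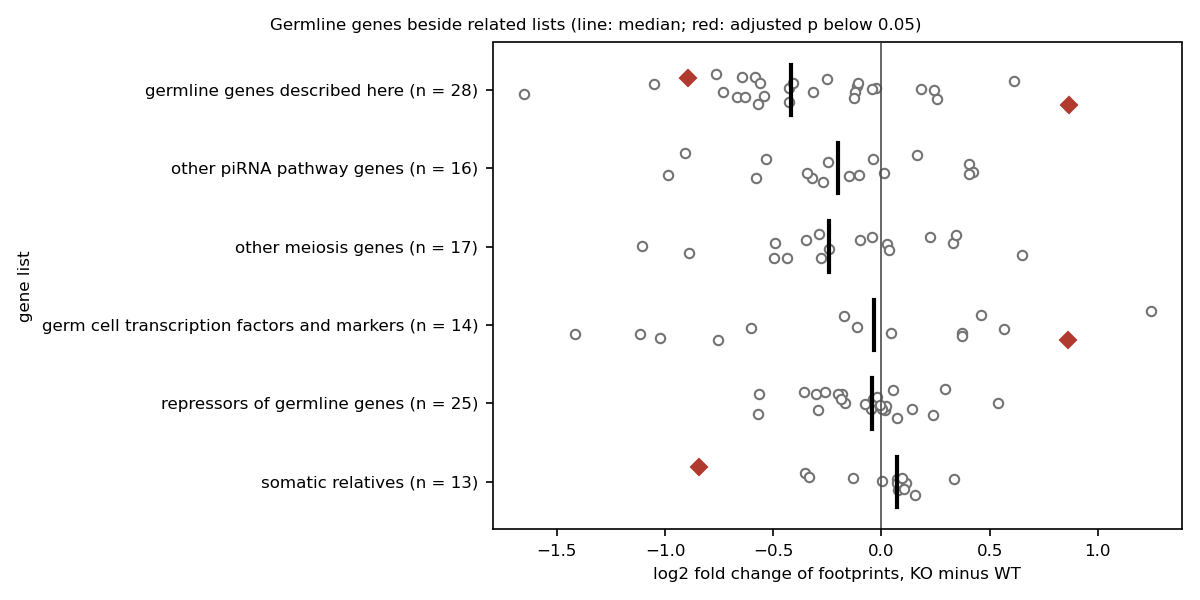
Log2 fold change of footprints (KO minus WT) for each tested gene of the 34 and of the related lists; the black line is the list median and red diamonds have an adjusted p below 0.05. The medians run from -0.42 for the germline genes described here to 0.07 for their somatic relatives, with wide overlap of the single genes.

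Markers of other cell types also differed between the genotypes. The summed level of 12 fibroblast markers was 158 and 99.9 CPM in WT and 373 and 509 CPM in KO, with 7 above 3 counts in every library and Lum at 0. The collagens Col1a1 (70.9 and 23.9 CPM in WT, 212 and 274 in KO), Col1a2 (25.9 and 7.97, then 61.9 and 87.4) and Col5a1 (16.3 and 17.5, then 49.2 and 77.7) made up most of it. Of this list Col5a1 passed the test and was higher (adjusted p = 0.0110 by edgeR). Col3a1 (0.669 and 0.238 CPM in WT, 3.54 and 8.88 in KO) passed the count filter through its KO libraries alone. Its edgeR call was not shared by limma-voom (adjusted p = 0.0631). Thy1 (20.2 and 25.1, then 14.8 and 16.5) and Pdgfra (7.74 and 9.17, then 4.08 and 3.22) had negative log2 fold changes of -0.51 and -1.20. The sum of 12 extraembryonic endoderm markers was 794 and 965 CPM in WT and 367 and 479 CPM in KO, with 11 above 3 counts in every library. Cubn (log2 fold change -2.51, adjusted p = 0.00907 by edgeR), Dab2 (-1.74, 0.00907) and Col4a1 (-1.63, 0.0108) passed the test, all lower. Pdgfra is on this list too, and no tested gene of it had a positive log2 fold change. Of 8 markers of two-cell-like cells, 3 were above 3 counts in every library, Tdpoz4 was at 0, and the sum was 6.48 and 7.37 CPM in WT and 16.2 and 8.35 CPM in KO. The part of these differences in the germline values was not tested.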

How the data were processed

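Footprints and total RNA of WT and METTL5 KO mESC were sequenced, with 2 libraries per genotype and assay. Per the submitters' processing notes, Bowtie2 2.3.4.3, RSEM and mm10 were used; no source used here states strand or alignment settings. The deposited tables, per the file headers, give RSEM expected counts and TPM for 23845 symbols, which split reads shared between genes. Deposited FPKM was not used. Expected counts were rounded and tested with edgeR 4.0.16 (robust glmQLFit, TMM, filterByExpr, Benjamini-Hochberg), footprints and RNA-seq apart, and called below an adjusted p of 0.05. SE values were derived from the F statistic. Members, lists and tests were chosen with earlier results of these data known. Values in every library are given for genes called or with a mean of at least 5 CPM, and others where they bear on a role; of each related list, called genes and the 2 most abundant. Of the symbols in the related lists, 7 were not matched. Positions, exon overlaps and windows of 28 bases came from GENCODE M21 (GRCm38), and promoters and chromosomes from RefSeq (GRCm38.p6). Exact binomial intervals cover counting error. Replicates were compared by chi-square over genes (2.96 to 24.1 per degree of freedom), so none was closer than sampling noise. Alternatives were DESeq2 1.42.0, limma-voom (limma 3.58.1), other scalings and filters, a replicate block, chromosome medians removed and leaving out each library.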

Additional observations from a re-analysis of the deposited data

How the results depend on the processing

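With DESeq2 2 of 28 germline genes were called lower and 1 higher, beside 374 of 12315 genes called in either direction. With no filter on low counts 4 of 34 were called lower and 1 higher, beside 1110 calls over all genes against 301 in the main fit. With chromosome medians removed 0 germline genes were called lower. Genes called higher were 0 with chromosome medians removed and 0 at a mean count of at least 50. Over all genes, calls in footprints numbered 301, and 1110 with no filter, 186 at a mean count of at least 50 and 189 to 761 when 1 library was left out. In RNA-seq they numbered 133, 75 with DESeq2 and 73 to 242 with 1 library left out, and no germline gene was called in any. Leaving out 1 footprint library gave 0 to 5 germline genes called lower, 0 to 1 called higher and a median between -0.68 and -0.19. The mean KO sum was 430 CPM with Rn45s left out of the total, against 373. The mean WT sum, 483 CPM with Rn45s kept, also rose and stayed above that of KO, with overlap of the single libraries. Signs turned for Sycp3 (0.085) and Tex14 (0.0058) by limma-voom and for Tex14 (0.12) with chromosome medians removed. With 1 library left out, log2 fold changes crossed 0 in these genes: Tdrd1 (-0.21 to 1.06), Tdrkh (-0.61 to 0.024), Mov10l1 (-0.40 to 0.26), Tdrd5 (-0.33 to 0.27), Sycp3 (-0.71 to 0.83), Hormad1 (-0.065 to 0.54), Smc1b (-0.88 to 0.19), Taf7l (-0.81 to 0.64), Tex101 (-0.31 to 0.033), Dpep3 (-0.24 to 0.69), Tex14 (-0.64 to 0.66) and, in RNA-seq, Sycp1 (-0.21 to 0.92). Log2 fold changes of 15 of 28 tested germline genes were negative in every fit that tested them. The causes were not tested.

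A replicate block (same-numbered WT and KO libraries treated as pairs) gave 2960 calls in footprints (11.3% of those tested called lower), with 11 germline genes lower, namely Ddx4, Piwil2, Stk31, Tex19.1, Syce1, Tex11, Dazl, Dnd1, Stra8, Sohlh2 and Tuba3a, and Rpl10l higher. In RNA-seq the block gave 155 calls. The footprint libraries of equal number share a tag in their table names, with its meaning unstated, and the RNA-seq tables carry no such tag. The departures from the genotype mean in libraries of equal number correlated at 0.397 across 12315 genes in footprints and at 0.0314 across 2087 genes in RNA-seq; genes are not independent replicates. With 2 pairs and no stated meaning of the tag, whether the footprint libraries are paired was not settled, and the unpaired fit is the one reported.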

Other observations

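Of the X-linked Rhox homeobox genes besides Rhox13, 3 were on the list of germ cell factors, and they are given here because of their values. Rhox5 had 151 and 157 CPM in WT and 81.2 and 98.8 CPM in KO (KO minus WT -0.76 in log2, SE 0.17, adjusted p = 0.0551 by edgeR). Rhox6 had 12.6 and 11.7 CPM in WT and 3.01 and 5.81 CPM in KO (-1.41, SE 0.33, adjusted p = 0.0622), and Rhox9 had 9.29 and 9.88 CPM in WT and 2.89 and 5.68 CPM in KO (-1.12, SE 0.34, adjusted p = 0.124). None of the 3 passed by edgeR, DESeq2 called Rhox5 (adjusted p = 0.0175) and Rhox6 (0.0255), and in each both KO libraries lay below both WT libraries. Other Rhox genes were not examined. The median of X-linked genes tested was 0.02.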
